A study of Mus musculus with 6 samples.

Results

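Progress through the cell cycle is driven by cyclins and the cyclin-dependent kinases (CDKs) they activate, and 42 genes of this machinery were followed here in activated mouse T cells. The genes were chosen by symbol and were found in the deposited gene table by their Ensembl identifier without its version. All 42 were among the 52550 genes listed and among the 14786 genes that passed the filter on low counts. When a T cell is activated, cyclins D, E, A and B act in turn with their kinases. They phosphorylate the pocket proteins of the retinoblastoma family and so free E2F factors, which switch on the genes of DNA replication. CDK inhibitors hold the kinases back, and FoxM1, B-Myb and the MuvB complex later switch on the genes of G2 and mitosis.

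RNA was sequenced from splenic CD3+ T cells of wild-type (WT) mice 24 h after activation with antibodies to CD3 and CD28. The 3 samples of the first group were activated without a compound (TCR alone), and the 3 of the second were activated with DMGV at 100 ng/ml (TCR+DMGV). DMGV is dimethylguanidino valeric acid, a product of methylated arginines. The labels name DMGV, whereas the study's legend for this experiment names LNY1, a factor purified from fibroblast medium, at the same dose. Strain, age and sex of the mice behind these samples were not given in the labels, which call the 3 samples of a group biological replicates. All cells were activated, so no value here describes resting T cells.

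The estimated counts summed to between 37758725 and 43718867 per sample. They were scaled to a common total per sample (CPM) with edgeR's TMM method, and FPKM, which is also scaled to gene length, was used to compare levels between genes. On the first principal component (32.2% of the variance) TCR alone replicate 3 and TCR+DMGV replicate 1 stood apart, with scores of 42.06 and 42.9 against -34.9 to -10.5 in the other 4 samples. The same samples had low levels of genes poor in G and C. In the tenth of genes of lowest GC content (41.3% or less), the median deviation from the mean over all 6 samples on the log2 scale was -0.37 and -0.27 in them and 0.08 to 0.26 in the other 4. All 12 T cell markers were tested and 11 had higher means in TCR+DMGV (median log2 fold change 0.11), with summed CPM of 3662 to 4049 in TCR alone and 3879 to 4216 in TCR+DMGV. Markers of other cells were low. Their summed CPM in TCR alone and TCR+DMGV were 11.01 to 13.7 and 13.1 to 13.3 for B cells, 10.7 to 15.1 and 10.1 to 12.5 for myeloid cells, 62.1 to 73.0 and 68.1 to 83.7 for NK cells, 9.86 to 15.7 and 11.1 to 14.1 for dendritic cells, and 5.01 to 5.46 and 2.78 to 4.85 for erythroid cells. All 8 neutrophil markers were at 0 counts in every sample, as were Cd14 of the myeloid list and Siglech, Clec9a and Cd209a of the dendritic cell list. The part of these differences in the results was not tested.

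Promoters of E2F targets carry E2F sites, and those of G2/M genes carry CHR elements and CCAAT boxes. Of the members, 29 had a promoter in RefSeq (GRCm38.p6, 250 bases before to 50 after the transcription start), and both strands were searched. An E2F site (the letters TTCCCGC, the letters TTGGCGC, the letters TTCGCGC or the letters TTGCCGC) was found in 12 of the 29 (41.4%) and in 10.9% of all 27025 genes with a promoter. A CHR element (the letters TTTGAA or the letters TTCGAA) was found in 9 (31.0%, against 21.7% of all genes), and CCAAT in 18 (62.1%, against 41.1%). Promoters of the members described most closely here are shown 5′ to 3′ along the gene's strand, with the matched letters in capitals. Those of Ccnb1 and E2f7 were chosen by rule as the members of smallest p with an E2F site, and that of Ccnb2 was added after its values were seen because it holds CHR elements.
Ccnb1 promoter (chr13:100786437-100786736, reverse strand): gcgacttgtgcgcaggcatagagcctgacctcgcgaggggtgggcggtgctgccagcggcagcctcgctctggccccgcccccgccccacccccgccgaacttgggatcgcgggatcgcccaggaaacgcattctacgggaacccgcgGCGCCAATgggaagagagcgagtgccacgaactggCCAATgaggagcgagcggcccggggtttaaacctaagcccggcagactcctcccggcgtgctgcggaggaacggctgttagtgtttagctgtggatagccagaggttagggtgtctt
E2f7 promoter (chr10:110745189-110745488, forward strand): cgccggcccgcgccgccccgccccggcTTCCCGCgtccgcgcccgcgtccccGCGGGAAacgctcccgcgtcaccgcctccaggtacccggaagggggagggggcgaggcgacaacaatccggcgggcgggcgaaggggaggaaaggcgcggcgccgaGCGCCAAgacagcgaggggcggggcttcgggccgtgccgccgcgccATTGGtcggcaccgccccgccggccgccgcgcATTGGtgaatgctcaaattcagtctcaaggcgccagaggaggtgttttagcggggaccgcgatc
Ccnb2 promoter (chr9:70421505-70421804, reverse strand): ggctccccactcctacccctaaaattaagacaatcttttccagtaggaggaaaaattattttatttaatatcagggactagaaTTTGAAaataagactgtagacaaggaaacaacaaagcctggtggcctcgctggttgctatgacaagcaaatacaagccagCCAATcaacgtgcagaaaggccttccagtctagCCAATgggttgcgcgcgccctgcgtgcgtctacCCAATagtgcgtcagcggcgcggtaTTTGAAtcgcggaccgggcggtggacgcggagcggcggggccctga
The Ccnb1 promoter held 1 E2F site, whose letters overlap 1 of its 2 CCAAT boxes. The E2f7 promoter held 3 E2F sites and 2 CCAAT boxes, and the Ccnb2 promoter 2 CHR elements and 3 CCAAT boxes. The median log2 fold change was -0.16 for the 12 members with an E2F site and -0.10 for the 17 without. It was -0.10 with and -0.11 without a CHR element, and -0.15 with and -0.10 without CCAAT. These matches describe letters in the window and were not tested as sites. Only the letters named above were searched, so a promoter without a match may still hold such an element in another form.

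The levels of the members spanned a wide range. Mean FPKM over all 6 samples was above 100 for 3 members, above 10 for 19 and below 1 for 2. The 3 highest were Ccnd2 (cyclin D2), with 126 ± 1.95 FPKM in TCR alone and 127 ± 4.07 in TCR+DMGV, E2f4, the main repressor E2F, with 126 ± 3.19 and 124 ± 1.37, and Tfdp1, the DP subunit with which E2Fs bind DNA, with 111 ± 2.33 and 105 ± 1.71 (SD, n = 3 each). Ccnd2 and E2f4 did not differ beyond their spread. Cdk4, the kinase partner of D cyclins, followed with 83.4 ± 4.20 and 83.3 ± 3.37 FPKM, and the small CDK-binding subunits Cks2 (66.8 ± 3.70 and 70.1 ± 12.3) and Cks1b (67.2 ± 8.50 and 64.5 ± 7.49) came next (SD, n = 3 each). The 2 lowest were Ccnd1 (cyclin D1), with 0.162 ± 0.0369 and 0.191 ± 0.0656 FPKM, and Cdkn2a (p16 and p19ARF), with 0.177 ± 0.0895 and 0.141 ± 0.139 (SD, n = 3 each). Cdkn2a was listed at 0 in TCR+DMGV replicate 2.

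**Figure D1:**
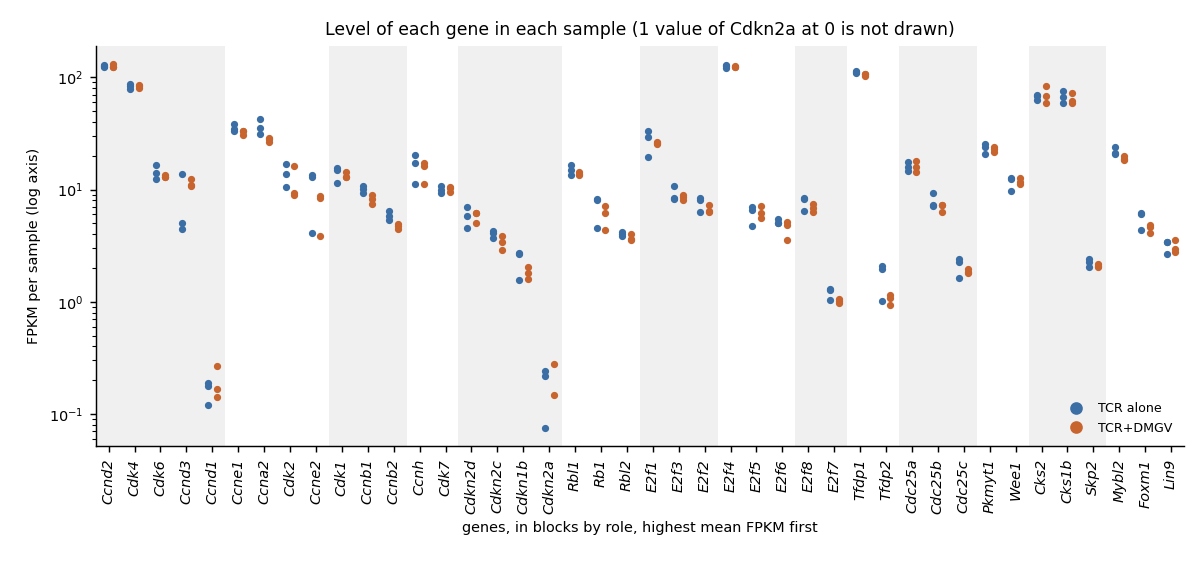
FPKM of each of the 42 genes in each sample on a log axis, in blocks by role, with TCR alone in blue and TCR+DMGV in orange. Ccnd2, E2f4 and Tfdp1 lie above 100 FPKM and Ccnd1 and Cdkn2a below 1, and for most genes the points of the groups lie on top of each other.

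With edgeR the adjusted p was 0.999 for each of the 42 members, so that none was under 0.05, as against 2 of all 14786 genes (0.0135%). Means were lower in TCR+DMGV for 31 members and higher for 11 (26.2%, where 50.6% of all genes tested were higher). The median log2 fold change over the members was -0.10, against 0.0024 over all genes tested. DESeq2 and limma on log2(FPKM + 1) also passed none. On simulated counts edgeR recovered 0.0% of genes changed by a log2 fold change of 0.5, so changes of that size may be missed. At an unadjusted p under 0.05 in edgeR there were 4 members, all lower in TCR+DMGV (9.5% of the members, beside 1.56% of all genes lower and 1.63% higher). They were Ccna2, Tfdp2, Ccnb1 and Mybl2. DESeq2 gave 3 such members and limma 4. Without TCR+DMGV replicate 1, 2 or 3 this count was 2, 1 or 2. All 3 samples of TCR+DMGV lay below all 3 of TCR alone for 5 members (3.94% of all genes did so), namely Ccna2, Ccnb2, Ccne1, E2f7 and Mybl2, and above them for 1, Ccnd2 (4.92% of all genes). By FPKM, and by CPM scaled to library size alone, 3 of these 6 (Ccnd2, Ccne1 and E2f7) overlapped, while Ccnb1 and Tfdp1 did not, both lower. Fewer cells in a stage of the cycle and less RNA per cell cannot be told apart in such bulk samples. With 3 samples against 3, an exact permutation test cannot give a p under 0.1.

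**Figure D2:**
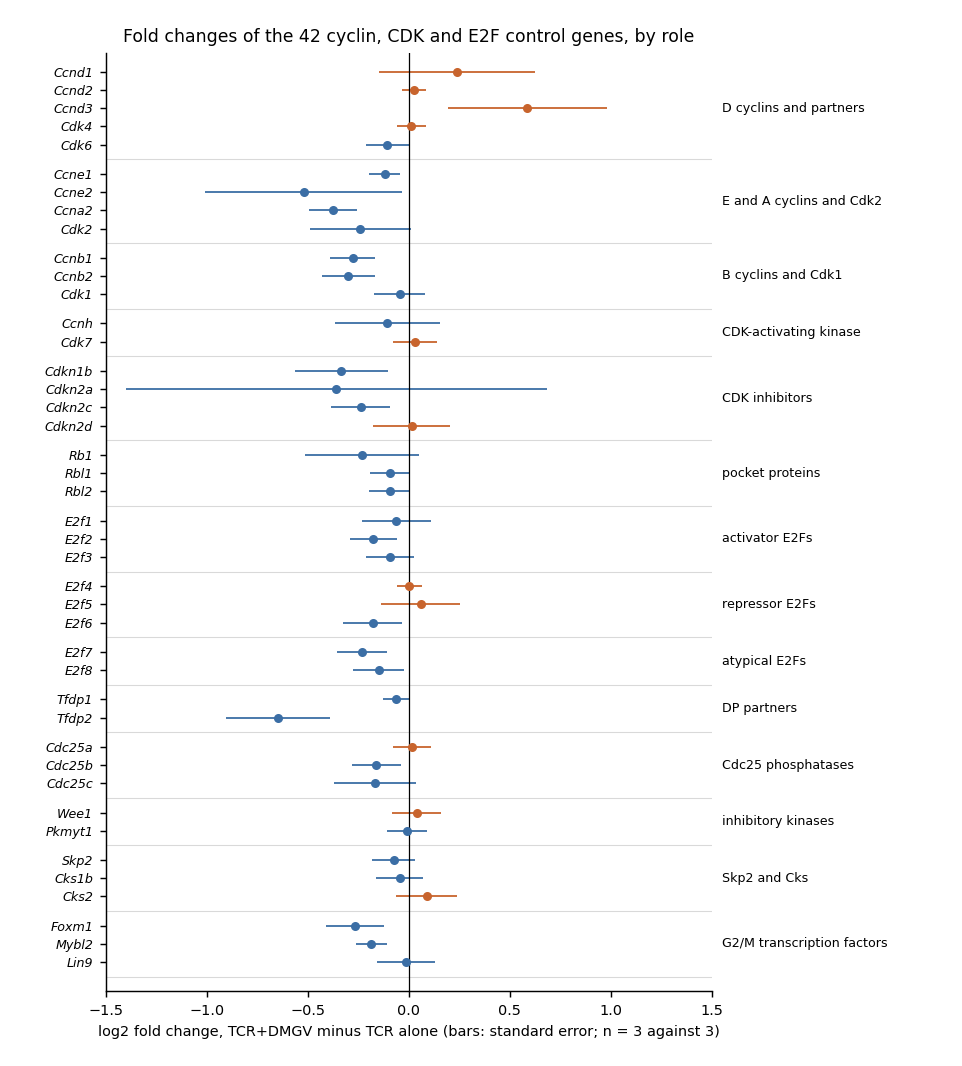
Log2 fold change of each member (TCR+DMGV minus TCR alone) with its standard error from edgeR, n = 3 against 3, grouped by role, with lower means in blue and higher means in orange. Of the 42 points 31 lie left of 0, and those of Ccnd3, Ccne2, Tfdp2 and Cdkn2a have bars wider than most.

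Sorted by phase, the members differed in size of change. The 10 drivers of G2 and mitosis were the B cyclins, Cdk1, Ccna2, Cdc25b, Cdc25c, Foxm1, Mybl2, Lin9 and Cks2. They had a median log2 fold change of -0.18, with 9 lower and 1 higher. Of them, 3 (30.0%) were lower at an unadjusted p under 0.05, where 1.56% of all genes were. The 16 drivers of G1 and of entry into S phase had a median of -0.07, with 11 lower and 5 higher, and 1 (6.2%) was lower at that p. The 14 inhibitors and repressors had a median of -0.12, with 10 lower, 4 higher and none at that p. The difference between these classes was not tested, and the classes, which leave out Ccnh and Cdk7, were drawn up after the values were seen. In the roles set beforehand, Ccna2 stood with the E cyclins and Cdk2, and the shares by class depend on where it is placed. Summed over the 10 drivers of G2 and mitosis, CPM scaled by library size were 578, 562 and 561 in TCR alone. In TCR+DMGV the sums were 499.6, 483 and 489, and the groups did not overlap. Such a sum is weighted to the genes of highest CPM. In this class these were Ccna2 and Mybl2 (means of 166 and 114 CPM in TCR alone), both already seen to be lower without overlap.

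Ccna2 (ENSMUSG00000027715.9, chromosome 3 from 36564865 to 36572150, GRCm38, reverse strand), cyclin A2 of S phase and G2, had the smallest p of all members. It had 192, 167 and 141 CPM in TCR alone and 126, 135 and 124 in TCR+DMGV. Every TCR+DMGV sample lay below every TCR alone sample. The log2 fold change was -0.38 (standard error 0.12), a mean 23.0% lower, and it ran from -0.48 to -0.28 with each sample left out in turn. On the opposite strand, Exosc9 shares 12.5% of the annotated exon bases of Ccna2, and use of strand in counting was not stated.

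Ccnb1 (ENSMUSG00000041431.16, chromosome 13 from 100778650 to 100786570, reverse strand) and Ccnb2 (ENSMUSG00000032218.7, chromosome 9 from 70407692 to 70421547, reverse strand) encode the B cyclins, which start mitosis with Cdk1. Ccnb1 had 47.4, 51.5 and 43.0 CPM in TCR alone and 38.2, 35.9 and 43.0 in TCR+DMGV, a log2 fold change of -0.28 (standard error 0.11). Its groups met at 43.0. Ccnb2 had 10.9, 10.2 and 8.91 CPM in TCR alone and 8.31, 7.78 and 8.28 in TCR+DMGV, a log2 fold change of -0.30 (standard error 0.13), and its groups did not overlap. Their partner Cdk1 had 62.8, 84.2 and 83.4 CPM in TCR alone and 78.0, 72.3 and 72.9 in TCR+DMGV. Its log2 fold change was -0.05 (standard error 0.13), and TCR alone replicate 1 was the lowest of all 6 samples.

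Of the transcription factors of G2/M genes, Mybl2 (ENSMUSG00000017861.11, chromosome 2 from 163054687 to 163084688, forward strand), which encodes B-Myb, had 107, 113 and 121 CPM in TCR alone and 102, 99.0 and 98.4 in TCR+DMGV. The groups did not overlap, and the log2 fold change was -0.19 (standard error 0.08). Foxm1 (ENSMUSG00000001517.14, chromosome 6 from 128362967 to 128376146, forward strand) had 38.5, 28.8 and 39.3 CPM in TCR alone and 29.3, 32.1 and 27.3 in TCR+DMGV. TCR alone replicate 2 lay among the TCR+DMGV samples, and the log2 fold change was -0.26 (standard error 0.14). Its main transcript Foxm1-201 held 81.7% of its transcript counts, and Foxm1-202 held 11.9%. Lin9, a subunit of the MuvB complex, had a log2 fold change of -0.02 (standard error 0.14), with samples at 21.1 to 28.5 CPM.

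**Figure D3:**
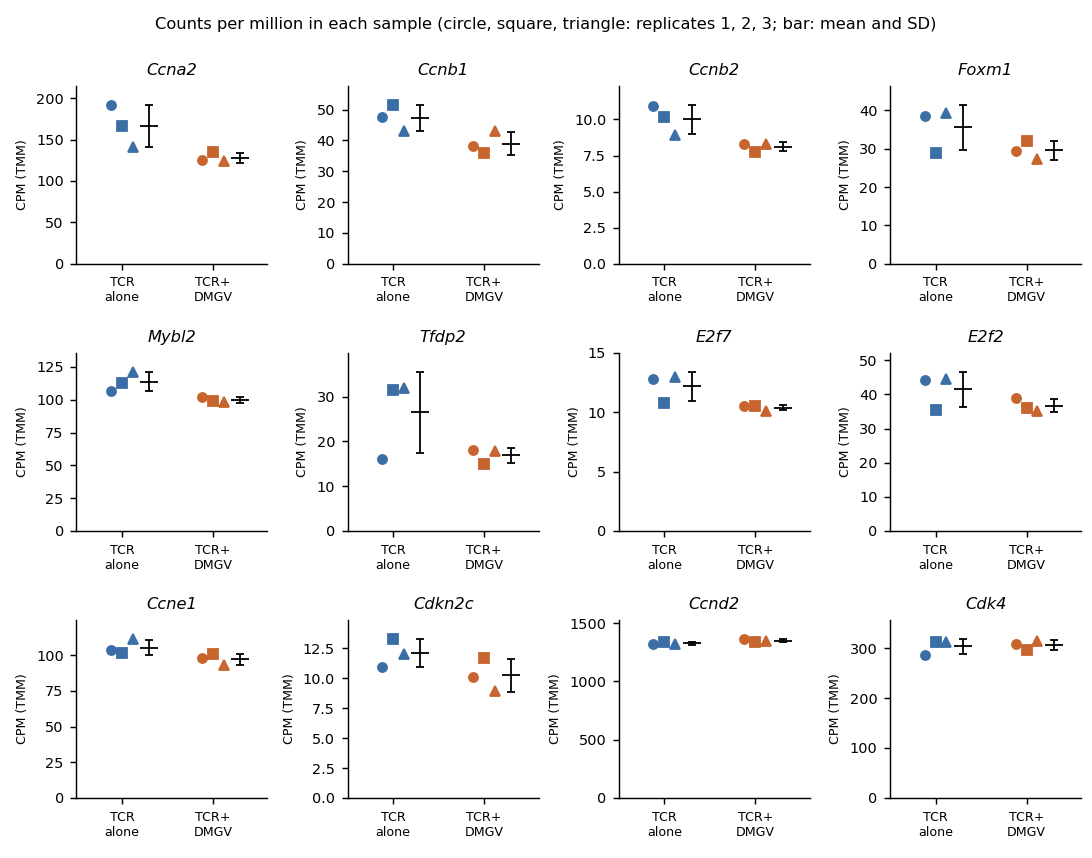
CPM of 12 members in each sample, with TCR alone in blue, TCR+DMGV in orange, replicates as circles, squares and triangles, and mean and SD as bars, each axis starting at 0. On this TMM-scaled measure the orange points of Ccna2, Ccnb2, Mybl2, E2f7 and Ccne1 lie below all blue ones, those of Ccnd2 lie above them by little, and 1 blue point of Tfdp2 lies among the orange ones.

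Of the genes of entry into S phase, Ccne1 (cyclin E1), which acts with Cdk2, had 103, 101 and 111 CPM in TCR alone and 97.8, 100.4 and 92.8 in TCR+DMGV. The groups did not overlap by this scale but did by FPKM and by library size alone, and the log2 fold change was -0.12 (standard error 0.08). Ccne2 (cyclin E2) had 52.4, 51.7 and 15.9 CPM in TCR alone and 15.0, 35.1 and 33.5 in TCR+DMGV. Its lowest values were those of the samples that stood apart, and its log2 fold change of -0.52 had a standard error of 0.49. Rb1, the retinoblastoma protein that holds E2Fs in check, had 55.6, 55.4 and 29.7 CPM in TCR alone and 28.8, 48.5 and 42.7 in TCR+DMGV. Ccnh, the cyclin of the CDK-activating kinase, had 59.3, 72.2 and 37.95 CPM in TCR alone and 38.5, 60.6 and 58.4 in TCR+DMGV. These 3 genes had the lowest values in the same samples, TCR alone replicate 3 and TCR+DMGV replicate 1. They were the only members within the tenth of lowest GC content, at 36.3% for Ccne2, 41.2% for Rb1 and 38.7% for Ccnh. Cdk2 ran the other way, with 73.7, 98.6 and 115 CPM in TCR alone and 112, 66.7 and 63.9 in TCR+DMGV, highest in the samples that stood apart.

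None of the 3 D cyclins, which couple the signal from the receptor to the cycle, had a lower mean. For Ccnd1, of few counts, the log2 fold change of 0.24 had a standard error of 0.39 and allows no statement on direction. Ccnd2 had 1319.9, 1335 and 1319 CPM in TCR alone and 1364, 1337 and 1346 in TCR+DMGV. On this scale every TCR+DMGV sample lay above every TCR alone sample, by 1.81% in the mean (log2 fold change 0.03, standard error 0.06), but the groups overlapped by FPKM and by library size alone. Cdk4 had 286, 312 and 311 CPM in TCR alone and 309, 295 and 314 in TCR+DMGV, and Cdk6 had 257, 198 and 214 in TCR alone and 199, 215 and 208 in TCR+DMGV. Both overlapped between the groups.

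Ccnd3 (ENSMUSG00000034165.16, cyclin D3, chromosome 17 from 47505051 to 47599691, forward strand) had the highest fold change of the members, and 1 sample decided its size. It had 43.9, 50.8 and 132 CPM in TCR alone and 103, 125 and 112 in TCR+DMGV. TCR alone replicate 3 was the highest of all 6 samples, and the other 2 TCR alone samples lay below every TCR+DMGV sample. The log2 fold change was 0.59 (standard error 0.39). It was 1.27 without TCR alone replicate 3 (adjusted p = 0.0886), but 0.29 without TCR alone replicate 1 and 0.36 without TCR alone replicate 2. With both samples that stood apart left out, it was 1.32 (edgeR adjusted p = 0.0375), and Ccnd3 was then the only member past the threshold. That step was chosen after seeing the data and left 2 samples in each group. It also removed TCR alone replicate 3, the only TCR alone sample that was not low, so it is no separate support for a rise. Ccnd3 was singled out after its values were seen.

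The transcripts of Ccnd3 differed between the groups more than the gene did. Ccnd3-202 (ENSMUST00000171031.7) was estimated at 271, 98 and 76 counts for TCR alone and 3462, 4122 and 3605 for TCR+DMGV, which was 1.39% to 16.2% and 75.2% to 81.4% of the counts of the gene. This is a log2 fold change of 4.54, with a standard error of 0.61 (edgeR adjusted p = 0.289 over all transcripts). Ccnd3-215 (ENSMUST00000183044.7) was estimated at 262, 1046 and 4476 for TCR alone and 107, 163 and 124 for TCR+DMGV, a log2 fold change of -3.92 (standard error 1.05). Both are annotated as protein coding with 7 exons each, of which 5 are identical. They share 2045 bases, and 68 bases of Ccnd3-202 and 19 of Ccnd3-215 are their own, so that few bases tell them apart. The authors' assignment of reads to isoforms was taken as given.

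**Figure D4:**
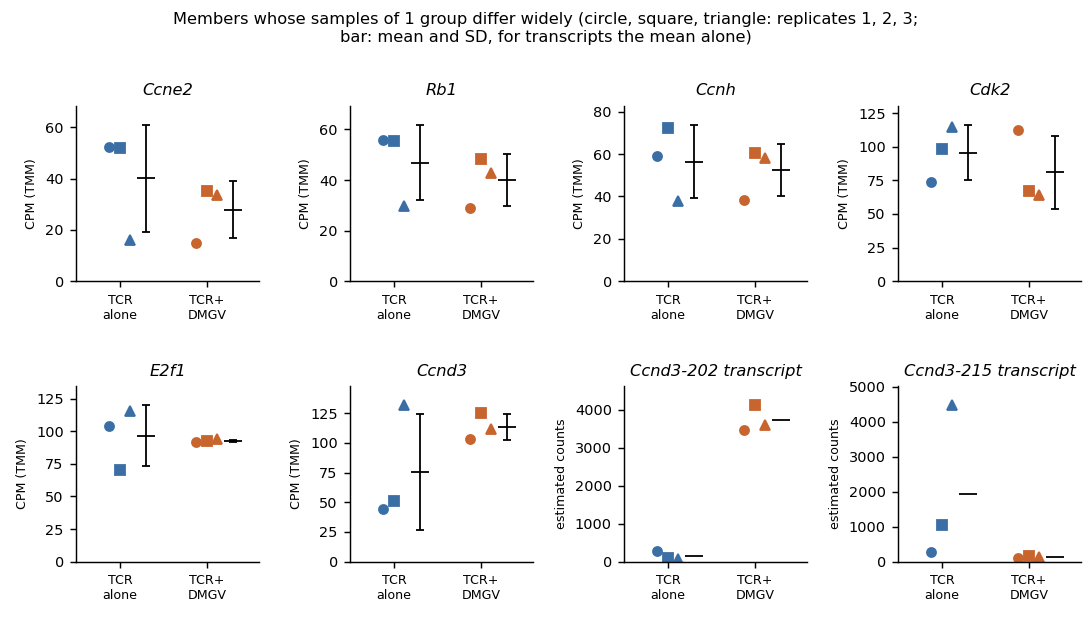
CPM of 6 members and estimated counts of 2 Ccnd3 transcripts in each sample, with TCR alone in blue and TCR+DMGV in orange, replicates as circles, squares and triangles, and mean and SD (for transcripts the mean alone) as bars. Ccne2, Rb1 and Ccnh are lowest in TCR alone replicate 3 and TCR+DMGV replicate 1, and Ccnd3-202 lies at 3462 to 4122 counts in the TCR+DMGV samples and at 76 to 271 in the TCR alone samples.

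Over all members, 234 transcripts were listed and 140 tested. None passed an adjusted p of 0.05 (0% of the 38401 transcripts tested), and 7 (5.0%) had an unadjusted p under 0.05, where 3.22% of all transcripts tested did. These 7 were Ccna2-201, Foxm1-207 and 5 transcripts of Ccnd3. In 18 members at least 2 transcripts held 10% or more of the counts each. For E2f7 they were E2f7-201 (70.4%) and ENSMUST00000173471.7 (24.3%), and counts of the latter were 335, 0 and 0 for TCR alone and 0, 255 and 86 for TCR+DMGV. For Tfdp2, Tfdp2-201 held 47.5%, at 198, 832 and 871 for TCR alone and 81, 86 and 480 for TCR+DMGV, while Tfdp2-203 held 16.4% and Tfdp2-209 16.0%. More than 1 transcript was also above that share in Cdkn2c, Ccnh, E2f1, E2f8 and Tfdp1, and none of these had an unadjusted p under 0.05.

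Among the E2F activators and repressors, E2f1, an activator, had 104, 70.5 and 115 CPM in TCR alone and 91.6, 92.3 and 93.6 in TCR+DMGV, so that the TCR+DMGV samples lay within the range of TCR alone. E2f2, another activator, had 44.2, 35.5 and 44.6 CPM in TCR alone and 39.0, 35.9 and 35.3 in TCR+DMGV (log2 fold change -0.18, standard error 0.12). E2f3 had a log2 fold change of -0.09 (standard error 0.12). The repressor E2f4 had 345, 343 and 345 CPM in TCR alone and 336, 344 and 355 in TCR+DMGV (log2 fold change 0.002, standard error 0.06). E2f5 and E2f6 had log2 fold changes of 0.06 and -0.18 (standard errors 0.19 and 0.14), and neither group was apart from the other.

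The atypical repressors E2f7 and E2f8, which are themselves E2F targets, had lower means. E2f7 (ENSMUSG00000020185.16, chromosome 10 from 110745439 to 110787384, forward strand) had 12.8, 10.8 and 13.0 CPM in TCR alone and 10.5, 10.5 and 10.1 in TCR+DMGV, without overlap by this scale but with overlap by FPKM and by library size alone (log2 fold change -0.23, standard error 0.12). E2f8 had 51.3, 40.4 and 49.4 CPM in TCR alone and 38.01, 46.2 and 43.1 in TCR+DMGV, with overlap. Of the DP partners, Tfdp1 had 444, 471 and 455 CPM in TCR alone and 429, 447 and 437 in TCR+DMGV. Tfdp2 (ENSMUSG00000032411.15, chromosome 9 from 96196275 to 96323646, forward strand) had the lowest fold change of all members, with 16.1, 31.4 and 32.0 CPM in TCR alone and 17.996, 15.0 and 17.7 in TCR+DMGV. TCR alone replicate 1 lay among the TCR+DMGV samples, and the log2 fold change was -0.65 (standard error 0.26). Tfdp2 stood at 1.68 ± 0.575 and 1.06 ± 0.118 FPKM (SD, n = 3 each), far below Tfdp1.

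Of the 4 CDK inhibitors, 3 had a lower mean and 1 a higher one, and none of the groups was apart. Cdkn2c (p18), which binds Cdk4 and Cdk6, had 10.98, 13.3 and 12.0 CPM in TCR alone and 10.1, 11.7 and 8.96 in TCR+DMGV (log2 fold change -0.24, standard error 0.15). Cdkn1b (p27) had 13.9, 8.14 and 13.4 CPM in TCR alone and 7.98, 9.48 and 10.7 in TCR+DMGV (log2 fold change -0.33, standard error 0.23). Cdkn2d (p19), the inhibitor of highest FPKM, had 8.004, 12.6 and 10.1 CPM in TCR alone and 10.7, 9.08 and 11.2 in TCR+DMGV (log2 fold change 0.01, standard error 0.19). Of the pocket proteins, Rbl1 (p107) had 109, 102 and 88.9 CPM in TCR alone and 88.1, 98.6 and 94.5 in TCR+DMGV, and both Rbl1 and Rbl2 had a log2 fold change of -0.10 (standard errors 0.10 and 0.10).

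The remaining members set the activity and turnover of the kinases. Cdc25a, a phosphatase that activates Cdk2, had 142, 135 and 154 CPM in TCR alone and 159, 146 and 132 in TCR+DMGV. The mitotic phosphatases Cdc25b and Cdc25c had log2 fold changes of -0.16 and -0.17 (standard errors 0.12 and 0.20). Pkmyt1, which with Wee1 inhibits Cdk1, had 54.2, 48.5 and 56.8 CPM in TCR alone and 51.7, 56.1 and 50.6 in TCR+DMGV, and Wee1 had a log2 fold change of 0.04 (standard error 0.12). Cks2 had 53.4, 54.4 and 47.5 CPM in TCR alone and 44.9, 54.0 and 66.2 in TCR+DMGV. Skp2, which marks p27 for breakdown, Cks1b, and Cdk7, the kinase partner of Ccnh, had log2 fold changes of -0.08, -0.05 and 0.03 (standard errors 0.11, 0.12 and 0.11). All of these overlapped between the groups.

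Lists of other cell cycle genes were read beside the members. These lists were chosen with earlier results of these data known. Genes of a list may move together within a sample and are not replicates of a condition. The counts and shares below therefore describe genes and carry no test. All 28 G2/M target genes tested had a lower mean in TCR+DMGV, with a median log2 fold change of -0.29, and 12 of them (42.9%, where 1.56% of all genes were) were lower at an unadjusted p under 0.05. None passed an adjusted p of 0.05 in edgeR or DESeq2. The groups did not overlap for 11 of the 28, all lower, where 3.94% of all genes tested were lower without overlap. The summed CPM by library size were 2394, 2338 and 1943 in TCR alone and 1661, 1798 and 1739 in TCR+DMGV. Without TCR+DMGV replicate 1, 2 or 3 the count of 12 was 7, 5 or 7. Its range with each of all samples left out in turn is given in the last section. After a correction for GC content 1 of the 28 was higher and the median was -0.26.

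The G2/M target gene of smallest p was Kif2c, a kinesin that takes apart microtubules at centromeres, with 32.2, 38.1 and 35.0 CPM in TCR alone and 27.8, 24.1 and 24.8 in TCR+DMGV (log2 fold change -0.46, standard error 0.11). Mki67, the proliferation marker Ki-67, was named after its values were seen. It had 509, 443 and 358 CPM in TCR alone and 297, 322 and 318 in TCR+DMGV (log2 fold change -0.48, standard error 0.13). For both genes the groups did not overlap. In some genes of the list TCR alone replicate 3 lay near the TCR+DMGV samples, as in Top2a, the topoisomerase that untangles chromosomes, which had 674, 698 and 470.5 CPM in TCR alone and 407, 509 and 486 in TCR+DMGV.

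The 34 E2F target genes of DNA replication had a median log2 fold change of -0.05, with 25 lower and 9 higher. At an unadjusted p under 0.05, 2 were lower (5.9%, where 1.56% of all genes were). The groups did not overlap for 7 lower genes and 1 higher gene. Of all genes tested, 3.94% were lower and 4.92% higher without overlap. Rrm2, a subunit of ribonucleotide reductase, had the smallest p, with 276, 286 and 257 CPM in TCR alone and 232, 238 and 238 in TCR+DMGV (log2 fold change -0.21, standard error 0.07). The summed CPM of the list by library size were 9970 to 10795 in TCR alone and 10089 to 10142 in TCR+DMGV, with overlap. The difference between the lists was not tested.

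Of 26 other cyclins and CDKs, 22 were tested, with a median log2 fold change of -0.02 and none at an unadjusted p under 0.05. The smallest p was that of Ccnf (cyclin F, also in the G2/M list), with 32.6, 29.7 and 30.9 CPM in TCR alone and 26.3, 28.6 and 25.2 in TCR+DMGV (log2 fold change -0.22, standard error 0.09). Of the 17 MuvB, RB-linked and ubiquitin ligase genes 8 were higher and 9 lower (median -0.01). Fbxo5, an inhibitor of the anaphase-promoting complex, had the smallest p (log2 fold change -0.29, standard error 0.12). Of 4 other CDK inhibitors 3 were tested, and Cdkn1c had the smallest p, at 0.316 to 0.564 CPM in TCR alone and 0.328 to 0.921 in TCR+DMGV. Cdkn1a (p21), named after its values were seen, had 7.58, 10.1 and 9.88 CPM in TCR alone and 8.99, 8.43 and 9.34 in TCR+DMGV.

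Of 15 genes linked to T cell quiescence, 10 had higher and 5 lower means (median log2 fold change 0.05). Bach2, a repressor that keeps T cells in a resting state, had the smallest p of the list and was lower, with 222, 179 and 94.7 CPM in TCR alone and 66.9, 68.8 and 94.4 in TCR+DMGV (log2 fold change -1.11, standard error 0.30, edgeR adjusted p = 0.999). With DESeq2, Bach2 passed an adjusted p of 0.05, as given in the last section. Its groups all but met, at 94.7 CPM in TCR alone and 94.4 in TCR+DMGV. The 10 activation markers had a median log2 fold change of -0.02, with 4 higher and 6 lower and none at an unadjusted p under 0.05.

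**Figure D5:**
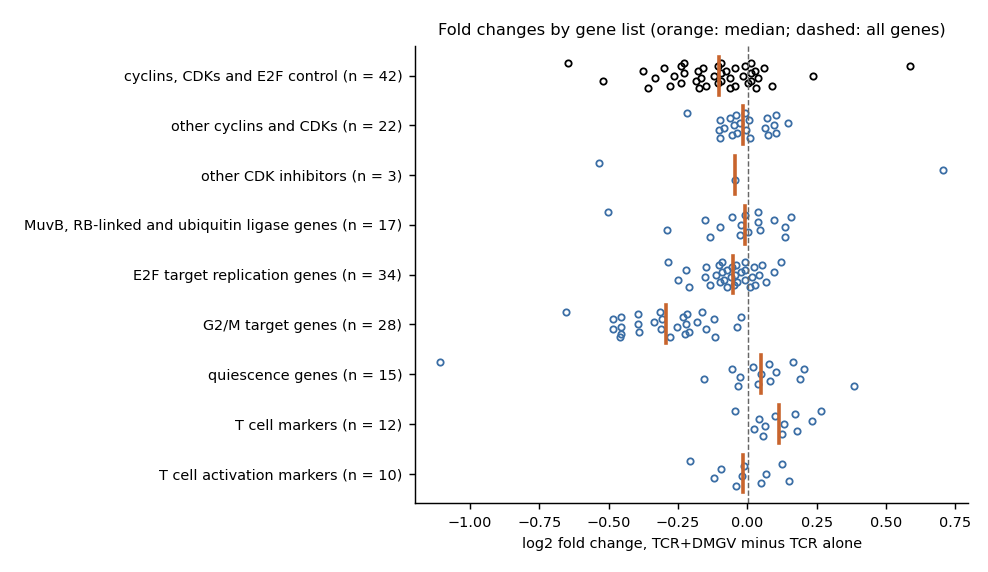
Log2 fold changes of the genes tested in each list (TCR+DMGV minus TCR alone, 1 circle a gene), with the median of the list in orange and that of all genes tested as a dashed line. All 28 G2/M target genes lie left of 0, with a median of -0.29, and the members have a median of -0.10.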

How the data were processed

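Total RNA of 6 samples of activated splenic T cells was sequenced (mRNA libraries, Illumina), and groups came from the sample labels. The authors filtered reads with SOAPnuke, mapped them with HISAT2 (2.0.4 in the submitters' processing notes, which name mm9), and estimated expression with StringTie. The deposited estimated counts are whole numbers per gene and transcript, not normalized. They sum to more than the read depth the labels state, so 1 count need not be 1 read, and how coverage was turned into counts was not given in the sources used here. The deposited FPKM values are scaled by the authors to gene length and sample total. Transcript FPKM was not used. The files hold no coordinates. Identifiers matched GENCODE M21 (GRCm38) for 99.7% of genes without and 93.3% with their version, so positions are those of that annotation. No batch was given in the labels.

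Gene counts were tested with edgeR 4.0.16 (TMM, default filter, quasi-likelihood test, two-sided, Benjamini-Hochberg over all genes tested, threshold 0.05) in R 4.3.3, transcript counts likewise. The design had assumed plain counts, and the test stayed the same. Alternatives were DESeq2 1.42.0, limma 3.58.1 on log2(FPKM + 1) and log2(FPKM + 0.1), other size factors and filters, summed transcripts, a correction for GC content (loess, span 0.3), the replicate number as a block, and each sample left out. Leaving out both samples that stood apart, and overlap by FPKM or by library size, were chosen after seeing the data. The test was tried on simulated counts of 3 samples against 3. Of genes changed by a log2 fold change of 1.0, 46.4% were recovered at an adjusted p under 0.05. Of genes changed by 0.5, 0.0% were recovered. Only 3 members had a fold change over 0.5 in size. Medians and counts of lists carry no test. P-values set the difference between the groups against the spread between these samples.

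The members and lists were chosen with earlier results of these data known. Values per sample are given for the 10 members of smallest p, every member whose groups do not overlap, and the member of highest FPKM in each role. In each other list the gene of smallest p is named, and transcripts of members so named where at least 2 hold 10% or more. Other genes with values per sample (Ccnd3, Ccne2, Rb1, Cdk2, Cdk4, Cdk6, Cdkn1b, Cdkn1a, Mki67, Top2a) were chosen after their values were seen. Of the cell type markers, 1 is not reported here. Of the members, 18 share exon bases with another gene in the annotation, 7 of them over 10%. Tables and figures were made with Python 3.11.15, pandas 2.3.3 and matplotlib 3.10.9.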

Additional observations from a re-analysis of the deposited data

How the results depend on the processing

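Over all alternatives the median log2 fold change of the members stayed between -0.13 and -0.08 and that of the G2/M target genes between -0.32 and -0.25, and 8 to 13 members were higher. Of the members, 25 kept the sign of their fold change in each of the 18 alternatives (23 lower, and Ccnd2 and Ccnd3 higher). All alternatives draw on the same 6 samples, and 11 of them use all 6, so such agreement is no separate support. The share of all genes that kept their sign is not given here. At most 7 members changed sign in one alternative, and no member that changed sign had a fold change over 0.36 in size with all samples. No member passed an adjusted p of 0.05 in an alternative except with both samples that stood apart left out, where 1 did (Ccnd3), 2 samples being left in each group. With DESeq2, 1 gene of the other cell cycle lists passed, Bach2. The same replicate numbers did not deviate together (r = -0.15, 0.12 and -0.15 across genes for numbers 1, 2 and 3). The highest r was 0.31, for TCR alone replicate 3 and TCR+DMGV replicate 1, the samples that stood apart. Such values cannot settle whether samples of the same number were paired, which the labels do not state. With the replicate block and the GC correction, 2 members had an unadjusted p under 0.05. With the block alone, 1 member, 7 G2/M target genes and 9 genes of all cell cycle lists other than the members did. Without the block these counts were 4, 12 and 16. The last count includes the G2/M target genes each time. With one sample left out these counts ran from 1 to 6, from 5 to 16 and from 6 to 24. They were 1, 5 and 6 without TCR+DMGV replicate 2 and 6 members without TCR alone replicate 2. The G2/M target genes of higher mean numbered 0, but 1 with the GC correction, with the block and the GC correction, and with both samples that stood apart left out, and 0 to 1 with one sample left out. By FPKM or by CPM scaled to library size alone, 5 members instead of 6 did not overlap between the groups, and only 3 were among the 6 (Ccna2, Ccnb2 and Mybl2). No member transcript passed under any alternative run. The cause of these moves was not tested. Genes of few counts, such as Ccnd1 and Cdkn2a, had standard errors of 0.39 and 1.04 and allow no statement on direction.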
